A study of Homo sapiens with 33 samples.

Results

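The ATF4 stress genes and the aminoacyl-tRNA synthetases (tRNA ligases) are 32 genes written as 1 list, of which 30 were measured among 22465 genes. Members were chosen by name. Each gene was read from the probe set annotated to that symbol alone, and where there were several, from the brightest by its mean over all 33 arrays. ATF5 was read only by a probe set shared with MIR4751, and no probe set was annotated to VLDLR-AS1, so neither was analysed here. By role, the measured members are 5 regulators, 5 stress outputs, 6 enzymes of amino acid and one-carbon synthesis, and 14 genes of tRNA charging, namely 13 ligases and the tRNA exporter XPOT.

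RT112 and RT4 are urothelial carcinoma cell lines driven by an FGFR3-TACC3 fusion, and PD173074 (PD) is an FGFR inhibitor. RNA was measured on 33 Affymetrix Human Transcriptome 2.0 arrays, with 3 arrays for each of 11 conditions (RT112 on 24 arrays, RT4 on 9). Parental RT112 cells were grown without PD or treated acutely with it for 24 h, and parental RT4 cells were grown without PD. Resistant derivatives came from long-term culture in PD, at 1 µM for RT112 R1, RT112 R3 and RT4 R1 and at 2 µM for RT112 R2, and each was measured in drug and after 4 to 6 passages out of drug. The labels give no dose for the acute arrays, while acutely treated cells used for immunoblots received 1 µM for 24 h. In drug, R1 and R2 are mesenchymal in shape and R3, which carries an HRAS mutation, is epithelial, and out of drug R1 and R2 return to an epithelial shape. Each derivative is a single line, so a difference between derivatives is a difference between those lines. The labels do not say that the 3 arrays of a condition came from separate cultures, so p-values measure the spread between arrays, which may be technical. In RNA from whole cultures, fewer cells of a kind and less RNA per cell cannot be told apart.

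ATF4 is a transcription factor whose protein is made when the initiation factor eIF2alpha is phosphorylated, by kinases that sense amino acid shortage, unfolded protein in the endoplasmic reticulum or other stress. It is controlled largely at translation, so its mRNA need not follow its activity. Together with partners such as CEBPB and DDIT3 it switches on genes that make and import amino acids, supply one-carbon units from serine and load tRNAs, and genes such as TRIB3 and PPP1R15A that feed back on the response. Growth factor signalling through mTORC1 is also known to raise ATF4 protein and its synthesis genes in other cells.

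The ATF4 family binds a DNA element of the CEBP-ATF type, searched here as TGATGNAA on both strands (TTNCATCA on the other strand). In the 250 bases before the start site, RefSeq promoters of GRCh38.p14 held it in 3.14% of 35116 entries and 3.89% of 27305 gene symbols. Of the 24 members with a promoter in the table, 5 held it (20.8%), and over all 300 bases, which end 50 bases after the start, 9 held it (37.5%, beside 4.46% of all symbols). The members with no entry in the table were NUPR1, PSPH, SHMT2, LARS1, YARS1 and VARS1. The 9 sites are shown because their letters are what these members share outside the expression values. Each line gives 30 bases, 5′ to 3′ along the strand of the gene, with the match in capitals. For ASNS, TARS1 and GARS1 the start used lies inside the gene and not at its outermost start.
ASNS (chr7:97872458-97872487, minus strand, first base of the match 68 bases before the start): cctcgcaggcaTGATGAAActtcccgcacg
CHAC1 (chr15:40953251-40953280, plus strand, 209 bases before): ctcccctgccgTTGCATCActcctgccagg
AARS1 (chr16:70289675-70289704, minus strand, 187 bases before): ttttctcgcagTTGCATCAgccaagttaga
IARS1 (chr9:92293692-92293721, minus strand, 13 bases before): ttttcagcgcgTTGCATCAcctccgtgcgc
GARS1 (chr7:30594834-30594863, plus strand, 33 bases before an alternative start): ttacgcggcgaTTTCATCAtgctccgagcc
MARS1 (chr12:57488053-57488082, plus strand, across the start): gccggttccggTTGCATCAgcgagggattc
CARS1 (chr11:3057407-3057436, minus strand, across the start): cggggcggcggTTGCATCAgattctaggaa
TARS1 (chr5:33440956-33440985, plus strand, after the start): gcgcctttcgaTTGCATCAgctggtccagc
NARS1 (chr18:57621804-57621833, minus strand, after the start): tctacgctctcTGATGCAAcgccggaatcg
A match is a description of the letters and was not tested for binding. It was held by members that fell after acute PD, such as ASNS, IARS1 and MARS1, and by CHAC1 and CARS1, which did not pass the test there.

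Array medians ran from 4.86 to 5.08 on the log2 scale. No background test accompanies the signals, and where 1 side of a difference lies near these medians its size can only be a lower limit. The highest value in the table is 19.88, above what the 16 bits of a scanner reading can give on a log2 scale, and the sources used here do not say why, so fold changes hold on the deposited scale. RT112 R1 in drug replicate 3 and parental RT4 replicate 1 stood farthest from their groups over all genes, with root mean square distances of 0.531 and 0.511 from the mean of the other arrays, against 0.181 to 0.426 for the rest. Over the members alone, parental RT4 was the most spread condition (mean SD 0.639), followed by R1 in drug (0.528), and parental RT112 without and with PD were the tightest (0.135 and 0.134). Urothelial markers were more than 1 log2 unit above the array median for 12 to 13 of 14 genes in every condition, and endothelial markers for 0 of 5. Fibroblast markers were so for 1 to 2 of 7 in RT112 and 0 of 7 in RT4, and immune markers for 1 to 2 of 7. The fibroblast marker LUM averaged 9.70 in parental RT112 and 13.43 in R1 in drug, and the immune marker CD68 8.93 in parental RT112. Single urothelial markers nevertheless moved with the drug. UPK1A, a uroplakin, was higher in drug than out of drug by 9.27 in RT112 R1, 8.14 in RT112 R2 and 6.04 in RT4 R1 on the log2 scale. Of the 14, 5 passed as higher and 1 as lower in RT4 R1, where 10.5% of all genes passed. In RT112 R1, 2 were higher and 1 lower (all genes 5.68%), and in RT112 R2, 3 were higher and 2 lower (all genes 10.2%). EPCAM, an epithelial adhesion protein, was lower than in parental cells in RT112 R1 and R2 in drug (-2.49 and -1.88). The mean over the 14 was 10.84 to 11.65 in RT112 R1 out of drug and 12.12 to 12.46 in drug. The mean over 7 fibroblast markers was 5.35 to 5.41 in parental RT112, 5.73 to 5.78 after acute PD, 6.19 to 6.34 in R1 in drug and 6.07 to 6.18 in R2 in drug, where LUM and DCN passed the test, and 4.6 to 4.9 over the RT4 arrays. The mean over 7 immune markers was 4.96 to 5.03 in parental RT112 and 5.30 to 5.59 after acute PD, where LYZ and CD68 passed the test. The endothelial marker CDH5 also passed there, at a mean of 5.77 against 4.97 (0.80, adjusted p = 0.00206). The part of these markers in the results below was not tested.

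Acute PD lowered most of the synthesis and tRNA charging genes and raised a pair of stress genes. Of the 30 members, 18 fell and 2 rose at an adjusted p under 0.01 (limma, 3 arrays against 3, adjusted over all genes), where 24.5% of all genes passed, 13.1% lower and 11.4% higher. The median log2 difference was -0.87 over the members and 0.01 over all genes. By role, 12 of the 14 tRNA charging genes and 5 of the 6 synthesis enzymes fell, against 1 of the 5 regulators and none of the 5 stress outputs. The 2 that rose were DDIT3 and PPP1R15A.

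ATF4 mRNA itself read 11.88, 11.72 and 11.72 in untreated and 11.87, 11.76 and 11.98 in treated cells, a difference of 0.10 (SE 0.0860, adjusted p = 0.434). DDIT3, or CHOP, a factor that promotes cell death in prolonged stress, read 5.56, 5.45 and 5.23 without PD and 6.41, 6.42 and 6.70 with it. It rose by 1.10 (SE 0.119, adjusted p = 5.26e-04), with no overlap of the groups and with the untreated values close to the array medians. PPP1R15A (GADD34), the phosphatase subunit that reverses eIF2alpha phosphorylation, read 6.09, 6.22 and 6.21 and then 6.62, 6.88 and 6.78. It rose by 0.59 (SE 0.0880, adjusted p = 0.00211). TRIB3, a pseudokinase that restrains ATF4 and DDIT3, moved the other way, from 6.37, 6.22 and 6.26 to 5.60, 5.75 and 5.69. Its fall was 0.60 on the log2 scale (log2 difference -0.60, SE 0.0752, adjusted p = 9.27e-04). DDIT3 and MARS1 lie tail to tail and overlap at their ends, and the direction of MARS1 was opposite to that of DDIT3.

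Among the synthesis enzymes the median log2 difference was -1.11, and over the tRNA charging genes it was -1.19. PSAT1, the aminotransferase of serine synthesis, read 11.15, 10.91 and 11.01 in untreated cells and 7.97, 8.37 and 7.68 in treated cells, 8.09-fold lower (log2 difference -3.02, SE 0.172, adjusted p = 6.66e-05). MTHFD2, a mitochondrial folate enzyme, read 11.09, 10.75 and 10.87 and then 8.84, 8.61 and 8.22, 5.09-fold lower (-2.35, SE 0.168, adjusted p = 1.16e-04). In both genes the groups were more than 1 log2 unit apart at their nearest arrays. SHMT2, which passes a carbon from serine to folate, went from 12.36, 12.25 and 12.36 to 11.05, 11.17 and 11.09 (-1.22, adjusted p = 6.66e-05). ASNS, which makes asparagine, went from 6.94, 6.62 and 6.89 to 5.73, 5.86 and 5.83 (-1.01, adjusted p = 3.63e-04). PSPH, the last enzyme of serine synthesis, fell by 0.96 (log2 difference -0.96, adjusted p = 4.18e-04), and since it has a near-identical pseudogene copy, its signal may include that copy. PHGDH, the first enzyme of serine synthesis, was the one synthesis gene that did not pass (-0.20, adjusted p = 0.351).

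Among the tRNA ligases the falls ran from 0.78 to 2.54 on the log2 scale, with NARS1 (log2 difference -0.78, and -0.46 after repeated quantile normalization) at one end and IARS1 (-2.54) at the other. IARS1, for isoleucine, read 13.05, 12.57 and 12.70 without PD and 10.27, 10.46 and 9.96 with it (SE 0.167, adjusted p = 8.89e-05). MARS1, for methionine, read 11.32, 11.04 and 11.05 and then 9.09, 8.86 and 8.73 (-2.24, SE 0.122, adjusted p = 5.96e-05). VARS1, for valine, read 8.68, 8.42 and 8.44 and then 6.45, 6.59 and 6.45 (-2.02, SE 0.0934, adjusted p = 4.94e-05). None of these ligases had overlapping groups. VARS1 lies in the MHC region and has 7 probe sets, on the primary chromosome 6 sequence and on alternative haplotypes, over which the difference ran from -2.02 to -1.76. The set used throughout, the brightest, lies on a haplotype (-2.02), and the primary set gave -1.76. GARS1, for glycine, read 12.92, 12.57 and 12.73 and then 11.28, 11.20 and 11.08 (-1.55). WARS1, for tryptophan, read 10.46, 10.38 and 10.34 and then 9.06, 9.04 and 8.79 (-1.43). XPOT, which exports tRNA from the nucleus, read 12.66, 12.31 and 12.40 and then 11.26, 11.14 and 11.06 (-1.30). All 3 fell by more than the whole spread within either group. YARS1, for tyrosine, read 10.03, 9.80 and 9.86 and then 8.64, 8.61 and 8.63 (-1.27). AARS1, for alanine, read 12.39, 12.31 and 12.50 and then 11.19, 11.36 and 11.30 (-1.12). TARS1 (-0.96), EPRS1 (-0.94) and LARS1 (-0.80), for threonine, for glutamate and proline, and for leucine, also fell. CARS1, for cysteine, and SARS1, for serine, did not pass, with differences of 0.04 and -0.08 (adjusted p = 0.704 and 0.633).

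The remaining members were not called after acute PD. CEBPB (-0.21), a partner of ATF4, and NUPR1 (0.30), a stress-induced chromatin protein, had adjusted p of 0.0748 and 0.0837. The mTORC1 inhibitors DDIT4 (0.30) and SESN2 (-0.34) had adjusted p of 0.367 and 0.066, CHAC1 (-0.14), which degrades glutathione, 0.195, and STC2 (0.14), a secreted glycoprotein, 0.142. Leaving out each of the 6 arrays in turn, 20 or 21 members passed, the same 20 included each time. In 1 fit over all RT112 arrays, which pools the wider spread of the derivatives, DDIT3 (adjusted p = 0.0207), PPP1R15A (0.180) and ASNS (0.0792) no longer passed.

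**Figure D1:**
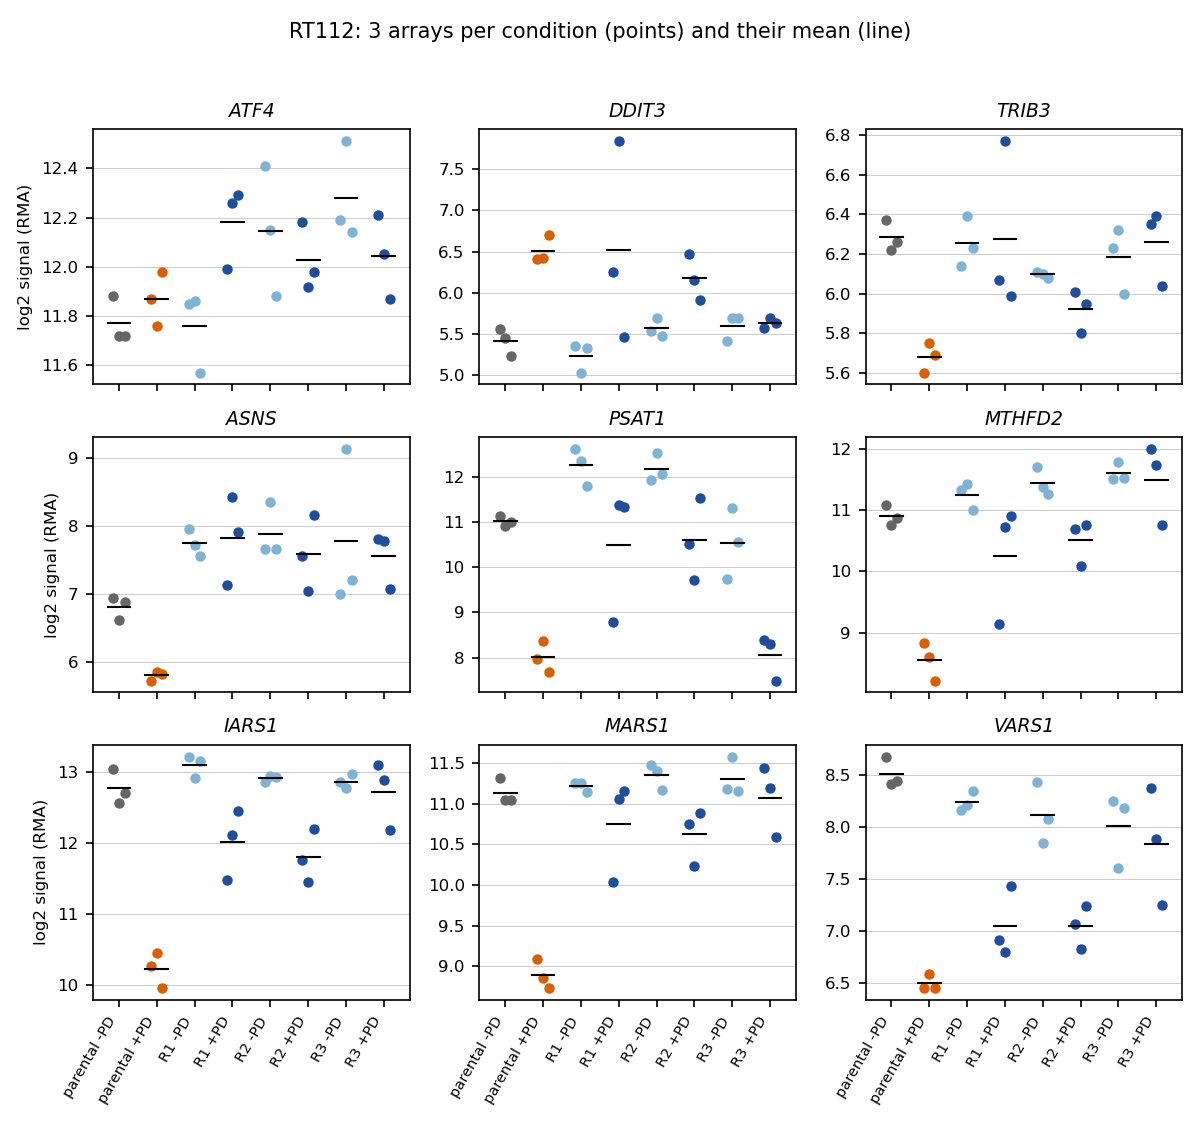
Log2 signal (RMA, y axis) of selected members in every RT112 array by condition (x axis), 3 points a condition with a line at the mean; grey is parental without PD, orange acute PD, light blue derivatives out of drug and dark blue derivatives in drug. PSAT1 sits at 10.91 to 11.15 in parental cells, at 7.68 to 8.37 after acute PD and at 7.49 to 8.38 in R3 in drug.

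Genes around the members were read from lists written for this work. In the list of 7 other genes of cytosolic tRNA ligases, which includes the non-ligase AIMP1, 5 fell after acute PD and none rose (median -0.72). FARSB (-3.17), a subunit of the phenylalanine ligase, led them. Over all genes 13.1% fell and 11.4% rose. In the list of 19 genes of mitochondrial tRNA ligases, which includes the non-ligase GATB, 12 fell and none rose (median -0.46), MARS2 the farthest (-1.95). Of 13 folate and serine genes, 10 fell and 1 rose (median -0.88), with MTHFD1 at -2.97 and GART, of purine synthesis, at -2.07. The other ATF4 targets were mixed, with 11 of 36 lower and 5 higher (median -0.11). Among them the amino acid transporters SLC7A11 and SLC7A5 fell (log2 differences -3.51 and -3.42), and KLHL24, a ubiquitin ligase adaptor, rose by 3.68. The eIF2alpha list had 9 of 21 lower and 3 higher, and the kinase EIF2AK3 (PERK) rose by 1.70. The list of chaperones of the endoplasmic reticulum and targets of ATF6 or XBP1 was divided, with 6 of 24 higher and 5 lower, HERPUD1 at 2.32 and HYOU1 at -1.89.

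After long-term culture in PD the members passed against untreated parental cells at shares near those over all genes. In R1, 3 of 30 passed, all lower (all genes 11.7%, 6.52% lower), and the member median was -0.01, as over all genes (-0.01). In R2, 4 passed, all lower (all genes 18%, 8.91% lower), with a median of -0.12 against -0.04. In R3, 1 passed, lower (all genes 1.95%, 1.05% lower), with a median of 0.06 against 0.00. At an unadjusted p under 0.05, limma gave 10 members in R1 (4 of them higher), 16 in R2 (5 higher) and 10 in R3 (5 higher). No share over all genes is given at that threshold, here or below. Such counts are therefore not read as particular to the members. These comparisons and the acute one share the 3 untreated parental arrays.

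PSPH, NARS1 and VARS1 were lower in both R1 and R2 in drug. VARS1 read 6.91, 6.80 and 7.43 in R1 and 7.07, 6.83 and 7.24 in R2, below the parental 8.42 to 8.68 on every array, with a log2 difference of -1.47 in each (adjusted p = 0.00328 and 3.25e-04). NARS1, for asparagine, read 14.01, 14.34 and 14.37 in R1 against 15.27, 15.14 and 15.34 in parental cells (-1.01, adjusted p = 0.00284), and its difference in R2 was -0.82 (adjusted p = 0.00557). After repeated quantile normalization the R1 difference was -0.61 and no longer passed (adjusted p = 0.0257). PSPH read 8.12, 7.95 and 8.22 in R1 against 9.18, 9.02 and 9.24 (-1.05, adjusted p = 0.00150), and -0.95 in R2 (adjusted p = 0.00123). In none of these did a derivative array reach the lowest parental array. SHMT2 passed in R2, at 11.15, 10.85 and 11.63 (-1.11, adjusted p = 0.00440), and its difference in R1 was -0.89 (adjusted p = 0.0600). In R1 the number of members that passed was 2 without R1 replicate 1, 5 without R1 replicate 3, 1 without parental replicate 2 and 0 without parental replicate 1 or 3. In R2 it was 3 without R2 replicate 1, 6 without R2 replicate 3 and 2 without any 1 of the parental arrays, PSPH and VARS1 passing each time.

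PSAT1 was the 1 member past the test in R3 in drug. It read 8.38, 8.29 and 7.49 in R3 in drug, 7.84-fold below parental cells (log2 difference -2.97, SE 0.239, adjusted p = 0.00336), and 8.05 on average against 8.01 after acute PD (0.05, adjusted p = 0.942). In R1 in drug it read 8.78, 11.38 and 11.34 and in R2 in drug 10.52, 9.73 and 11.54, neither past the test against parental cells (-0.52 and -0.43, adjusted p = 0.670 and 0.485). The direct differences were 2.45 for R1 against R3 (adjusted p = 0.0788) and 2.54 for R2 against R3 (adjusted p = 0.0211), so neither passed, and R1 replicate 1 lay near the R3 arrays. Of all 30 members none passed in R1 against R3 or R2 against R3 in drug, where 4.77% and 3.15% of all genes did. At an unadjusted p under 0.05, limma gave 5 and 11 members there, and the methods' t-test 2 and 5, with no share over all genes beside them. Without R3 replicate 2 or any 1 of the parental arrays PSAT1 no longer passed in R3, at differences of -3.09 to -2.91 and adjusted p of 0.0220 to 0.0304, and without R3 replicate 3 the count was 3.

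ASNS, with a match 68 bases before the start used here, was above untreated parental cells in every derivative on every array, in and out of drug, without passing. Its differences were 1.01 in R1, 0.77 in R2 and 0.74 in R3 in drug (adjusted p = 0.0738, 0.0649 and 0.0846). Out of drug they were 0.93 in R1, 1.08 in R2 and 0.97 in R3 (adjusted p = 0.0112, 0.0148 and 0.272). Out of drug it read 7.96, 7.73 and 7.56 in R1, 7.66, 8.36 and 7.66 in R2 and 7.01, 9.14 and 7.21 in R3. The parental arrays read 6.62 to 6.94 and the lowest derivative array, R3 out of drug replicate 1, 7.01. The highest was R3 out of drug replicate 2 at 9.14, on which CHAC1 (8.39) was also the highest of the RT112 arrays. PHGDH was likewise higher without passing in R1 and R2 in drug (0.97 and 0.75, adjusted p = 0.0175 and 0.0333) and was -0.13 in R3 (adjusted p = 0.442). ATF4 mRNA read 11.99, 12.26 and 12.29 in R1 in drug (0.41, adjusted p = 0.0404) 12.18, 11.92 and 11.98 in R2 in drug (0.25, adjusted p = 0.0939) and 12.21, 12.05 and 11.87 in R3 in drug (0.27, adjusted p = 0.161). Out of drug ATF4 read 11.85, 11.86 and 11.57 in R1, 12.41, 12.15 and 11.88 in R2 and 12.19, 12.51 and 12.14 in R3. The R3 arrays were all above the parental ones, without passing (0.51, adjusted p = 0.0318).

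R1 in drug was uneven for the stress genes. DDIT3 read 6.25, 7.84 and 5.46, PPP1R15A 7.26, 8.17 and 6.11, and CHAC1 6.83, 8.11 and 7.08 on its 3 arrays. Replicate 2 was the highest for all 3 genes, and replicate 3 fell within the parental range for DDIT3 and PPP1R15A. Their differences from parental cells were therefore wide, at 1.10 (SE 0.582, adjusted p = 0.246) for DDIT3, 1.01 (SE 0.493, adjusted p = 0.213) for PPP1R15A and 0.90 (SE 0.330, adjusted p = 0.109) for CHAC1. Without R1 replicate 3, PPP1R15A passed at 1.54 (adjusted p = 0.00737). In R2 in drug DDIT3 read 6.47, 6.16 and 5.91, above every parental array, and missed the threshold (0.77, adjusted p = 0.0102). Out of drug DDIT3 read 5.35, 5.03 and 5.33 in R1, 5.54, 5.70 and 5.48 in R2 and 5.41, 5.70 and 5.70 in R3.

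TRIB3 passed in none of the RT112 derivatives against parental cells, which read 6.22 to 6.37. In drug it read 6.07, 6.77 and 5.99 in R1, 6.01, 5.80 and 5.95 in R2 and 6.35, 6.39 and 6.04 in R3. The R2 arrays were all below the parental ones (-0.36, adjusted p = 0.0193). Out of drug it read 6.14, 6.39 and 6.23 in R1, 6.11, 6.10 and 6.08 in R2 and 6.23, 6.32 and 6 in R3.

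**Figure D2:**
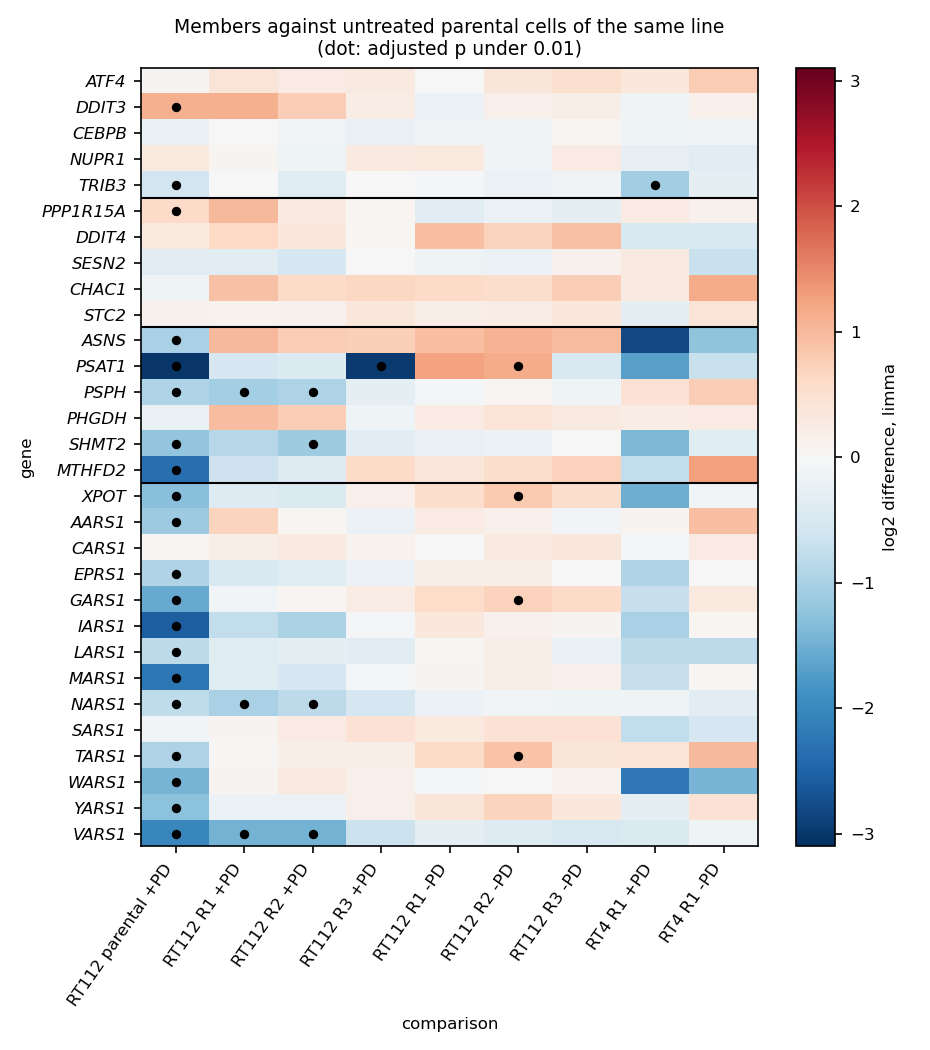
Heat map of limma log2 differences (colour) of the 30 members (rows, by role) in each comparison with untreated parental cells (columns), a dot where the adjusted p is under 0.01. The acute column holds 20 dots, against 3, 4 and 1 for RT112 R1, R2 and R3 in drug.

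The derivatives in drug were also set against acutely treated parental cells. These 3 comparisons were added after the other values had been seen and share the 3 acute arrays with each other and with the acute comparison, so a gene that read low on those arrays in the one tends to read high against them in the others. In R2, 11 members passed, all higher (all genes 11.3%, 5.88% higher). In R3, 9 were higher and 1 lower (all genes 11.1%, 5.33% higher and 5.74% lower), and in R1, 2 were higher, a share near that over all genes (7.08%, 3.06% higher). Member medians were 0.54, 0.63 and 0.50, against -0.04, 0.00 and -0.01 over all genes.

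ASNS and IARS1 passed in all 3 derivatives. ASNS read 7.14, 8.43 and 7.91 in R1, 7.56, 7.05 and 8.16 in R2 and 7.82, 7.78 and 7.07 in R3, against 5.73, 5.86 and 5.83 after acute PD. Its differences were 2.02, 1.78 and 1.75 (adjusted p = 0.00977, 0.00343 and 0.00364). IARS1 read 11.48, 12.12 and 12.45 in R1, 11.76, 11.45 and 12.20 in R2 and 13.10, 12.89 and 12.18 in R3, all above the acute 9.96 to 10.46. Its differences were 1.79, 1.57 and 2.49 (adjusted p = 0.00886, 0.00260 and 0.00284). MTHFD2 read 10.69, 10.09 and 10.76 in R2 and 12, 11.73 and 10.75 in R3 (1.96 and 2.94, adjusted p = 0.00137 and 0.00353). In R1 it read 9.14, 10.72 and 10.90, also above the acute arrays, and did not pass (1.70, adjusted p = 0.0631).

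Other ligases passed in R2 and R3 but not in R1. MARS1 read 10.75, 10.23 and 10.89 in R2 and 11.44, 11.19 and 10.59 in R3, against 8.73 to 9.09 after acute PD (1.73 and 2.18, adjusted p = 0.00111 and 0.00287). GARS1 read 12.74, 12.50 and 13.15 in R2 and 13.36, 13.06 and 12.52 in R3 (1.61 and 1.79, adjusted p = 9.48e-04 and 0.00360). WARS1 read 10.80, 10.40 and 10.82 in R2 and 10.70, 10.78 and 10.16 in R3 (1.71 and 1.58, adjusted p = 4.15e-04 and 0.00342). The groups did not overlap for any of them, and the R1 differences of 1.86, 1.48 and 1.51 had adjusted p of 0.0124, 0.0179 and 0.0406. TARS1 differed by 1.13 in R2, at 12.71, 12.45 and 13.08, and by 1.15 in R3, at 13.09, 12.84 and 12.36. YARS1 differed by 1.08 in R2, at 9.73, 9.43 and 9.97, and by 1.43 in R3, at 10.47, 10.15 and 9.54. AARS1 differed by 1.18 in R2, at 12.78, 12.18 and 12.42, and by 0.94 in R3. These passed in both, and whether R1 differed from R2 or R3 in this was not tested here, beyond R1 against R3 in drug.

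PSAT1 was 2.59 above the acute level in R2 (adjusted p = 0.00625) and 2.49 above it in R1 without passing (adjusted p = 0.0665). XPOT was 0.87 above it in R2 (adjusted p = 0.00649), and its differences of 0.91 in R1 and 1.45 in R3 did not pass (adjusted p = 0.192 and 0.0130). DDIT3, at 5.57, 5.70 and 5.63 in R3, was 0.88 below the acute level (log2 difference -0.88, adjusted p = 0.00353). PSPH differed from the acute level by -0.09 in R1 (adjusted p = 0.629) and 0.00 in R2 (adjusted p = 0.989). Without 1 array the number past the test in R1 was 6 without R1 replicate 1, 1 without R1 replicate 2 or 3 and 0 without any 1 of the acute arrays. In R2 it was 4 without R2 replicate 1, 4 without acute replicate 1 or 3 and 7 without acute replicate 2. In R3 it was 3 without R3 replicate 1, 0 without R3 replicate 2 or any 1 of the acute arrays, and 17 without R3 replicate 3.

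Out of drug, the members that passed against untreated parental cells were all in R2 and all higher. None of 30 passed in R1 (all genes 1.45%) or in R3 (all genes 3.18%), with member medians of 0.21 and 0.18. At an unadjusted p under 0.05, limma gave 13 members in R1, 17 in R2 and 11 in R3, of which 10, 14 and 10 were higher, and the methods' t-test gave 5, 15 and 6. These counts too have no share over all genes beside them. In R2, 4 passed, all higher (all genes 6.87%, 4.18% higher), with a median of 0.21 against -0.02 over all genes. PSAT1 read 11.93, 12.54 and 12.06 in R2 out of drug against 11.15, 10.91 and 11.01 in parental cells (1.15, adjusted p = 0.00589), and in R1 out of drug 12.63, 12.37 and 11.80 (1.24, adjusted p = 0.0162). TARS1 (0.88), XPOT (0.81) and GARS1 (0.70) were the other 3 in R2, with adjusted p of 0.00186, 0.00534 and 0.00983. Their 4 groups did not overlap with parental cells. The number past the test in R2 was 2 without R2 replicate 1 or 2 or parental replicate 1, and 0 without R2 replicate 3 or parental replicate 2 or 3. In R1 it was 1 without R1 replicate 3.

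In drug against out of drug, R1 and R2 each had PSPH and VARS1 lower in drug. In R1 these were the 2 that passed (all genes 5.68%, 2.97% lower), at 8.12, 7.95 and 8.22 against 9.06, 9.33 and 8.92 for PSPH (-1.01, adjusted p = 0.00642) and 6.91, 6.80 and 7.43 against 8.17, 8.21 and 8.35 for VARS1 (-1.20, adjusted p = 0.00828). In R2, 4 passed, all lower (all genes 10.2%, 5.85% lower). PSPH read 8.05, 8.12 and 8.41 against 9.44, 9.11 and 9.06 (-1.01, adjusted p = 0.00465). VARS1 read 7.07, 6.83 and 7.24 against 8.43, 7.85 and 8.08 (-1.07, adjusted p = 0.00678). For both genes, every array in drug was below every array out of drug in R1 and in R2. XPOT read 12.03, 11.74 and 12.29 against 13.28, 13.38 and 13.15 (-1.25, adjusted p = 0.00306), and IARS1 11.76, 11.45 and 12.20 against 12.86, 12.95 and 12.93 (-1.11, adjusted p = 0.00719). Member medians were -0.27 in R1 and -0.36 in R2. In R3 no member passed, nor did any other gene of the 22465 (5 members at an unadjusted p under 0.05 in limma and 1 in the methods' t-test), and the largest member difference was that of PSAT1 (8.38, 8.29 and 7.49 against 9.75, 11.32 and 10.56, -2.49, adjusted p = 0.185). The number past the test in R1 was 6 without R1 in drug replicate 3 and 0 without any of the other 5 arrays. In R2 it was 11 without R2 in drug replicate 3, 1 without R2 in drug replicate 2 or R2 out of drug replicate 1, and 0 without any of the other 3.

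**Figure D3:**
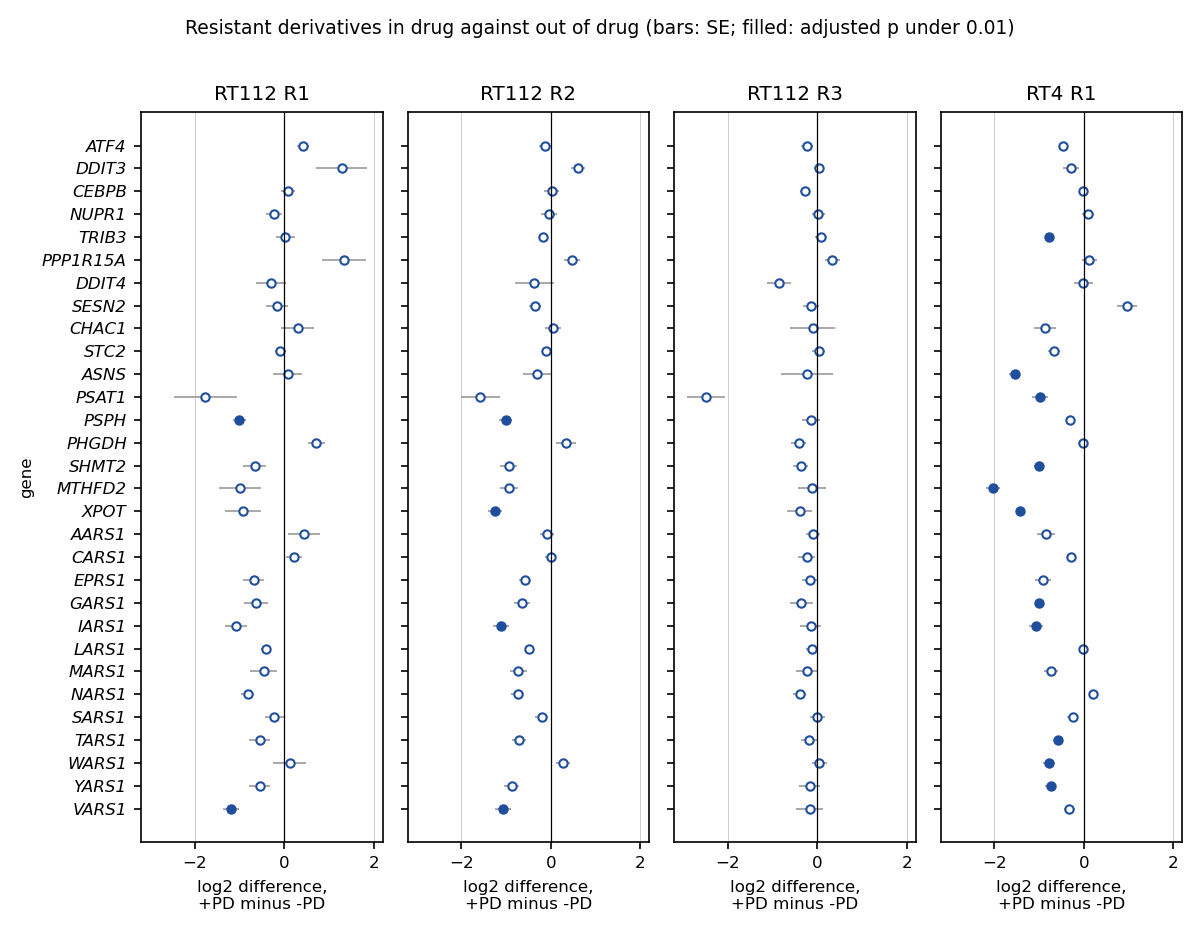
Log2 difference in drug against out of drug (x axis, limma, bars SE) of the 30 members (y axis) in each of the 4 derivatives, filled where the adjusted p is under 0.01. Filled points number 2 in RT112 R1, 4 in RT112 R2, 0 in RT112 R3 and 11 in RT4 R1, all left of 0.

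In the fits of single pairs of conditions, RT4 R1 gave the most member calls between in and out of drug. There 11 of 30 were lower in drug and none higher (all genes 10.5%, 5.74% lower), with a median of -0.62 against 0.01. MTHFD2 read 8.70, 8.97 and 8.94 in drug and 10.74, 11.25 and 10.74 out of drug, 4.11-fold lower in drug (-2.04, SE 0.156, adjusted p = 2.70e-04). ASNS read 6.79, 6.99 and 6.91 against 8.23, 8.71 and 8.40 (-1.55, SE 0.130, adjusted p = 3.94e-04). XPOT read 11.31, 11.55 and 11.49 against 12.83, 12.99 and 12.80 (-1.42, SE 0.0933, adjusted p = 1.56e-04). The groups of all 3 were more than 1 log2 unit apart at their nearest arrays. IARS1 read 10.58, 11.04 and 10.82 against 11.71, 12.11 and 11.83 (-1.07, adjusted p = 0.00291), and SHMT2 read 11.08, 11.25 and 10.99 against 12.07, 12.31 and 11.95 (SE of the difference 0.116, adjusted p = 0.00144). TRIB3 read 5.98, 6.14 and 6.18 against 6.92, 6.96 and 6.78 (-0.79, adjusted p = 0.00122). GARS1 read 12.33, 12.39 and 12.42 against 13.32, 13.47 and 13.34 (adjusted p = 2.43e-04). SHMT2 and GARS1 differed by about 1 log2 unit with no overlap. PSAT1 (-0.99), WARS1 (-0.78), YARS1 (-0.74) and TARS1 (-0.58) were the other 4. DDIT3, at 6.19, 6.21 and 6.23 against 6.92, 6.18 and 6.37, did not pass (-0.28, adjusted p = 0.367), and PPP1R15A differed by 0.12 (adjusted p = 0.714). SESN2 was 0.96 higher in drug without passing (adjusted p = 0.0211), STC2 0.66 lower (log2 difference -0.66, adjusted p = 0.0107) and ATF4, at 11.14, 11.39 and 11.35 against 11.78, 11.88 and 11.60, 0.46 lower (log2 difference -0.46, adjusted p = 0.0212). Without 1 array the number past the test ran from 6, without RT4 R1 in drug replicate 3, to 9, without any 1 of the out of drug arrays. In 1 fit over all RT4 arrays it was 2, fewer than RT112 R1 or R2 gave in 1 fit over all RT112 arrays. The order of the derivatives by number of calls therefore depends on the fit.

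Around the members, 14 of 36 other ATF4 targets were lower in RT4 R1 in drug than out of drug and 1 was higher, with SLC7A5 at -2.80, GDF15, a stress cytokine, at -2.20, and VEGFA at -1.94. The mitochondrial ligase list had 3 of 19 lower and none higher, and the folate and serine list 1 of 13 lower. The list of other cytosolic ligases had none of 7 past the test. Over all genes 5.74% were lower. HERPUD1 was 1.60 higher and EIF2AK2 (PKR) 1.71 lower (log2 difference -1.71).

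**Figure D4:**
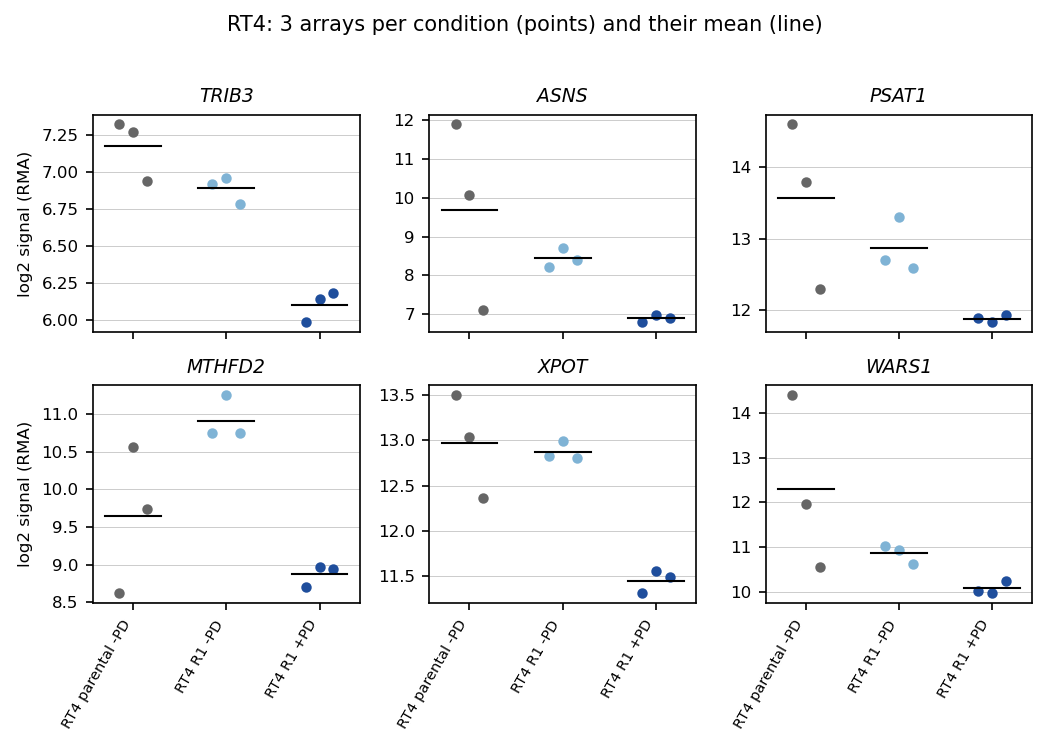
Log2 signal (RMA, y axis) of selected members in every RT4 array by condition (x axis), 3 points a condition with a line at the mean; grey is parental, light blue RT4 R1 out of drug and dark blue RT4 R1 in drug. MTHFD2 sits at 8.70 to 8.97 in drug and 10.74 to 11.25 out of drug, while ASNS in parental RT4 spans 7.11 to 11.89.

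Parental RT4 was uneven for the same genes, which widened its comparisons. ASNS read 11.89, 10.08 and 7.11, WARS1 14.39, 11.97 and 10.56, and PSAT1 14.60, 13.80 and 12.30, in the order of replicates 1, 2 and 3. ATF4 read 10.16, 11.54 and 11.22, lowest on the array where ASNS was highest. Against these arrays RT4 R1 in drug had 1 member past the test (all genes 5.86%, 3.33% lower), TRIB3, at 5.98, 6.14 and 6.18 against 7.32, 7.27 and 6.94 (-1.08, adjusted p = 0.00293). The larger differences of ASNS (-2.80, SE 1.06) and WARS1 (-2.22, SE 0.855) had adjusted p of 0.144 and 0.150. The number past the test was 2 without parental replicate 1, 6 without parental replicate 3 and 0 without any of the other 4 arrays. RT4 R1 out of drug had none past the test (all genes 0.966%), with a median of 0.01, and 9 members at an unadjusted p under 0.05 in limma and 6 in the methods' t-test.

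Untreated RT112 and RT4 differed in 7 members, 3 higher in RT112 and 4 lower (all genes 18.8%, 8.68% higher and 10.1% lower). TARS1 (12.71, 12.45 and 12.55 against 10.85, 11.82 and 11.44), VARS1 (8.68, 8.42 and 8.44 against 7.19, 7.73 and 7.43) and PSPH were higher in RT112, by 1.20, 1.06 and 0.78. CARS1 (7.19, 7.16 and 7.25 against 8.39, 8.41 and 8.25), PSAT1 (11.15, 10.91 and 11.01 against 14.60, 13.80 and 12.30), DDIT3 (5.56, 5.45 and 5.23 against 6.13, 6.32 and 6.52) and TRIB3 were lower in RT112 (-1.15, -2.54, -0.91 and -0.89). The groups of these 7 did not overlap, and CARS1 had the lowest adjusted p (1.65e-04). Without parental RT4 replicate 1 the number was 12, without parental RT4 replicate 3 it was 5, and without 1 of RT112 replicates 1, 2 and 3 it was 3, 2 and 1.

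The difference between the lines in the effect of long-term drug (derivative R1 in drug minus its parental line) was tested in 1 fit of 12 arrays. Of 30 members 2 passed, both with a lower effect in RT112 (all genes 7.76%, 3.14% lower). The share that passed is near that over all genes, so the count is not read as particular to the members. PSPH was 1.05 lower in RT112 R1 (log2 difference -1.05), while in RT4 R1 it read 8.68, 8.87 and 8.88 against 8.20, 8.68 and 8.21 (0.45, adjusted p = 0.111), a difference between the lines of -1.50 (SE 0.193, adjusted p = 5.25e-04). NARS1 was 1.01 lower in RT112 R1 (log2 difference -1.01), while in RT4 R1 it read 14.83, 15.01 and 14.92 against 14.99, 15.12 and 15.03 (-0.13, adjusted p = 0.442), a difference of -0.88 (SE 0.151, adjusted p = 0.00297). NARS1 no longer passed without parental RT112 replicate 3 (-0.84, adjusted p = 0.0103) or RT4 R1 in drug replicate 2 (-0.84, adjusted p = 0.0101), nor after repeated quantile normalization or median centring (adjusted p = 0.0128 and 0.0166). PSPH passed without any 1 of the 12 arrays. Only R1 of each line entered this fit, so a difference between the lines and one between the derivatives cannot be told apart.

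**Figure D5:**
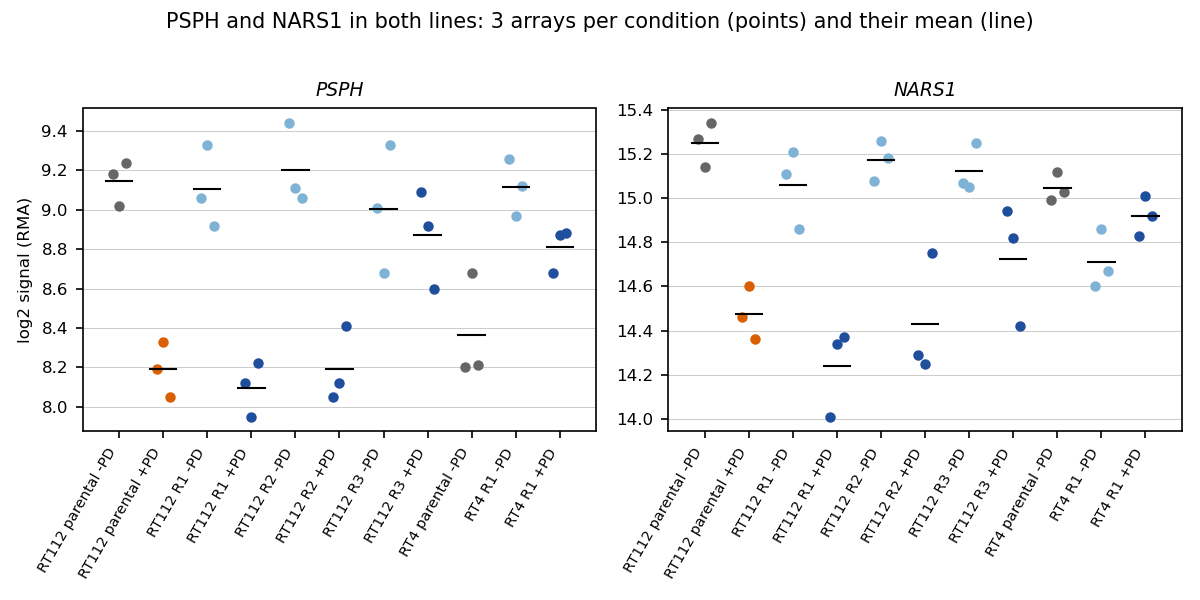
Log2 signal (RMA, y axis) of PSPH and NARS1 in all 11 conditions of RT112 and RT4 (x axis), 3 points a condition with a line at the mean. Grey is parental without PD, orange acute PD, light blue derivatives out of drug and dark blue derivatives in drug. In RT112 the R1 arrays in drug (7.95 to 8.22 for PSPH, 14.01 to 14.37 for NARS1) lie below all parental arrays without PD (9.02 to 9.24 and 15.14 to 15.34).

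Across the 24 RT112 arrays, which share 8 conditions and the normalization, the tRNA charging genes mostly moved with each other. Their median Pearson r was 0.732 over 91 pairs (range -0.106 to 0.964), and 0.681 after each condition's mean was removed. The highest of the pairs examined by name were MARS1 with IARS1 (0.961) and MTHFD2 with XPOT (0.918). DDIT3 had r 0.883 with PPP1R15A (0.830 within conditions). With the tRNA charging genes its median r was -0.525 (range -0.779 to 0.338). Within conditions that median was -0.017, with a range of -0.383 to 0.709. ASNS and CHAC1 had r 0.877 in RT112 and -0.42 over the 9 RT4 arrays. Over the RT4 arrays the tRNA charging genes had a median r of 0.53 with each other (range -0.779 to 0.963). In RT4 ASNS went with PSAT1 (0.982) and WARS1 (0.958), values that follow the spread of its parental arrays. These are descriptions of the arrays, with no test, and no r over pairs of other genes is set beside them.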

How the data were processed

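RNA of RT112 and RT4 cells was measured on 33 arrays. Values are log2 signals that the authors deposited after RMA (background correction, quantile normalization and 1 summary per probe set). The labels name Affymetrix Expression Console and the paper's methods rma_sketch in Affymetrix Power Tools. Of 70523 probe sets, 23781 carry 1 gene symbol, 1543 several and 45199 none, and 479 symbols had several probe sets. No column of another sample was present. Each of 19 pairs of conditions, 3 of them added after values were seen, was tested with limma 3.58.1 in R 4.3.3 (linear model, empirical Bayes), adjusted by Benjamini-Hochberg over 22465 genes, with a threshold of 0.01. Members and lists were chosen with earlier results of these data known. Values on every array are given for ATF4, DDIT3, ASNS and TRIB3 and for members past the threshold with a log2 difference of at least 1. Alternatives were 1 fit over all arrays of the lines compared, leaving out genes below the 30th percentile in level (15727 kept), repeated quantile normalization, a prior both trended and robust (statmod 1.5.0), median centring, a replicate block, the methods' t-test, the mean over probe sets and leaving out each array. Same-numbered arrays all correlated above 0.1 only in RT112 R3 out of drug against parental cells (0.384, 0.275 and 0.107). No member passed there with or without the block. In RT112 R2 out of drug against parental cells the values were 0.233, 0.206 and 0.068. In RT4 R1 in against out of drug they were 0.065, 0.108 and 0.152. In all 3 of these comparisons each array correlated best with the array of its own number. The procedure was tested on simulated data.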

Additional observations from a re-analysis of the deposited data

Results flagged for a closer look

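PSPH and NARS1 were singled out by a test of whether R1 in drug differed from its parental line unequally in RT112 and RT4. Over all genes 7.76% passed that test (3.14% lower), a share near that of the members. Only R1 of each line entered that test, so cell line and derivative cannot be told apart. PSPH averaged 8.87 in RT112 R3 in drug against 9.15 in parental RT112, without passing. In RT4 it averaged 8.36 in parental cells, 8.81 in R1 in drug and 9.12 in R1 out of drug. For PSPH the log2 effect in RT112 R1 minus that in RT4 R1 was -1.50 (SE 0.193, limma, adjusted p = 5.25e-04), with all 3 RT112 R1 arrays below all parental arrays and the RT4 groups overlapping. For NARS1 it was -0.88 (SE 0.151, adjusted p = 0.00297), with the same arrangement of the RT112 arrays. The NARS1 difference no longer passed after repeated quantile normalization or median centring (adjusted p = 0.0128 and 0.0166), and its RT112 R1 part shrank from -1.01 to -0.61 under the first (adjusted p = 0.0257). PSPH has a near-identical pseudogene copy, and its part in the PSPH signal was not tested.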

How the results depend on the processing

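Over 132 results on single members and 1168 values under other settings, 993 kept their side of the threshold, 127 no longer passed, 48 passed only there, and none reversed. Most settings leave the log2 difference as it was and so could not reverse it. The exceptions are repeated quantile normalization, median centring and, for VARS1, the mean over probe sets. Of the 48, 21 came from the methods' t-test at an unadjusted p under 0.05, a looser threshold. Over 852 values without 1 array, 627 were kept, 199 no longer passed and 26 passed only there, and each such fit has fewer arrays. The acute comparison was the steadiest, with 20 members and 20 to 21 without 1 array, and 15 by the methods' t-test after Benjamini-Hochberg. Signals were not tested against background, which limits low genes such as DDIT3 and STC2, and 3 arrays a condition limit precision.

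Counts of members without 1 array ran from 0 to 5 for R1 in drug against parental RT112, 2 to 6 for R2, 0 to 3 for R3, 0 to 1, 0 to 2 and 0 to 0 for R1, R2 and R3 out of drug, 0 to 6, 0 to 11 and 0 to 0 for R1, R2 and R3 in against out of drug, 0 to 1 for R1 against R3, 0 to 0 for R2 against R3, 0 to 6 and 0 to 0 for RT4 R1 in and out of drug against parental RT4, 6 to 9 for RT4 R1 in against out of drug, 1 to 12 between the parental lines, 0 to 6, 4 to 12 and 0 to 17 for R1, R2 and R3 against acute PD, and 1 to 4 for the difference between the lines.

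In 1 fit over all arrays of the lines compared, the counts became 5 (R1 in drug against parental, from 3), 1 (R2 out of drug, from 4), 8 and 8 (R1 and R2 in against out of drug, from 2 and 4), 4 and 4 (R1 and R2 against R3, from 0), 2 (RT4 R1 in drug against parental, from 1), 2 (RT4 R1 in against out of drug, from 11), 14 (between the parental lines, from 7), 13 and 16 (R1 and R3 against acute PD, from 2 and 10) and 4 (difference between the lines, from 2). The cause was not tested, and shares over all genes in these fits are not given here.

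With the replicate number as a block they became 1 and 0 for R1 and R3 in drug against parental, 1 for R2 out of drug, 0 and 0 for R1 and R2 in against out of drug, 0 for RT4 R1 in drug against parental, 2 between the parental lines, and 0, 5 and 6 for R1, R2 and R3 against acute PD. The labels link the arrays of these comparisons by a number only. In R2 out of drug, each array nevertheless correlated best with the parental array of its own number, so a pairing there is possible. The block moved no other count by more than 1.5 times.

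By the methods' t-test at an unadjusted p under 0.05 they became 7, 11 and 6 for R1, R2 and R3 in drug against parental, 5, 15 and 6 out of drug, 7, 16 and 1 in against out of drug, 2 and 5 for R1 and R2 against R3, 5 and 6 for RT4 R1 in and out of drug against parental, 18 for RT4 R1 in against out of drug, 11 between the parental lines and 12, 17 and 20 for R1, R2 and R3 against acute PD. After Benjamini-Hochberg adjustment at 0.01 that test left 1 in RT4 R1 in against out of drug, 1 between the parental lines, and 0 in the other 10 comparisons that had limma calls, acute PD aside. Shares over all genes are not given for the t-test counts.

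The filter on dim genes gave 1 in R1 and 1 in R3 out of drug. Quantile normalization again gave 2 in R1 out of drug, 1 in R1 in against out of drug and 1 in the difference between the lines, and median centring 0 in R1 in against out of drug, 4 between the parental lines and 1 in the difference between the lines. In the last, NARS1 was lost under both (adjusted p = 0.0128 and 0.0166) and PSPH was kept. NARS1 also shrank by more than 1.5 times under quantile normalization again, to -0.46 after acute PD (adjusted p = 0.00258) and -0.61 in R1 in drug (adjusted p = 0.0257). A trended and robust prior moved no count. The mean over probe sets moved none either, but among the members it could change the values of VARS1 only, since the others have 1 probe set each. In promoters, a window of 200 bases held the TGATGNAA match in 16.7% of members and 3.20% of symbols.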
